A study of Mus musculus with 4 samples.

Results

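The collagen genes were examined in the transcriptome of NIH/3T3 cells, an immortalised line of mouse fibroblasts. Members were the protein-coding transcripts whose gene symbol has the form *Col*, a type number, *a* and a chain number. This gave 51 transcripts of 35 genes, among 34200 transcripts of 21945 genes in the deposited table. The study compared knockdown (KD) cells, which were co-transfected with 2 *Setd2*-specific siRNAs, with wild type (WT) cells, which received a Scrambled siRNA that targets no gene. Both groups received siRNA at a final concentration of 10 nM in Lipofectamine 3000 and were lysed after 48 h. SETD2 is the histone methyltransferase that deposits H3K36me3 along actively transcribed genes. Whether its depletion alters the processing of pre-mRNA was 1 of the questions of the study, and the one that the knockdown addressed. Each group has 2 libraries of polyadenylated RNA. All 4 come from 1 cell line, and a transient knockdown leaves some of the target mRNA.

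The values used here are a mean and a variance of each transcript over the 4 libraries together, without regard to group. Values of single libraries are not used here, so their depth is unknown and no library is named as high or low. The columns that hold the comparison of KD with WT by the authors are not used either, and no test of KD against WT was made. A level below is the mean over the 4 libraries, in normalised estimated counts, which are read numbers estimated for a transcript and scaled for the size of the library. To compare genes, levels were divided by transcript length and are given per kilobase. The error of a level is the SD over the 4 libraries on the log2 scale (n = 4), which holds the difference between KD and WT and the spread between replicates together. It also sets a limit: with 2 libraries in each group, a given SD caps how far the KD and WT means can lie apart, and that cap is given as a fold. In bulk RNA, fewer cells that express a gene and less RNA per cell cannot be told apart.

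Collagens are the proteins of which connective tissue is mainly built. A collagen molecule is a trimer of chains wound into a triple helix, and the helix requires glycine, the smallest amino acid, at 1 of every 3 positions of the chain. Fibrillar collagens (types I, III and V) form the rope-like fibres of skin, bone and tendon. Type IV collagen forms the sheet-like network of basement membranes, and type VI collagen forms beaded microfilaments near the cell surface. Fibroblasts are the main producers of fibrillar collagen.

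The glycine repeat can be read in the coding sequence, since every glycine codon starts with GG. The following stretches of 27 bases show it for 1 or more members of each class and for the most abundant of the remaining collagens. Each is the first stretch within a single exon of the longest repeat in the most abundant transcript (GENCODE M21, GRCm38), written 5′ to 3′ on the coding strand, with the glycine codon that opens each triplet in capitals. The *Col3a1* stretch holds further glycine codons between them, which are left in lower case.
*Col1a1*: GGTccttctGGTcctcgtGGTctccct
*Col1a2*: GGTttaatgGGAcccagaGGCcctcct
*Col3a1*: GGAgtgggaGGAatgggtGGCtatccg
*Col4a1*: GGAgaaagaGGCttgccaGGGttgcaa
*Col6a1*: GGAcctccaGGGccccgaGGCgaccct
*Col16a1*: GGAgaacctGGCtgttctGGGagccct

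All 6 stretches lie in coding exons. The *Col1a1* stretch lies in exon 7 at chr11:94939697-94939723 and starts at codon 171, and the *Col1a2* stretch lies in exon 7 at chr6:4515210-4515236 and starts at codon 100, both on the plus strand. The *Col3a1* stretch is in exon 5 at chr1:45323762-45323788, also on the plus strand. Those of *Col4a1* (exon 3, chr8:11247069-11247095) and *Col6a1* (exon 8, chr10:76720970-76720996) are on the minus strand, and that of *Col16a1* is in exon 47 at chr4:130079646-130079672 on the plus strand.

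The classes differed in how the repeat is laid out. Runs of at least 6 glycine triplets without a break were counted in the most abundant transcript of each gene. They were found from glycine codons alone, and where the helix itself starts and ends was not examined. All 6 fibrillar genes had 2 runs, of which the longer held 337 to 344 triplets, with 344 in *Col3a1*, 339 in *Col1a2* and 338 in *Col1a1*. In the 6 type IV genes, the repeat was broken into 22 to 27 runs, the longest of 39 to 66 triplets, although the triplets summed to 421 to 444 and so exceeded those of every fibrillar gene. The type VI genes had 3 runs and 109 or 110 triplets in all, with the longest run at 87 in *Col6a1* and *Col6a2* and at 45 in *Col6a3* and *Col6a4*. Glycine made up 28.6% of the codons of *Col4a1* and 26.8% of those of *Col1a1*, but 15.3% of those of *Col6a1* and 9.30% of those of *Col6a3*, whose chains consist mainly of globular domains. Among the other collagens, *Col2a1*, *Col11a1* and *Col11a2*, which build the fibrils of cartilage, had the same layout as the fibrillar genes, with a longest run of 338 or 339. *Col27a1* and *Col24a1* had a shorter main run of 217 and 216 triplets. The FACIT collagens, which attach to the surface of fibrils and have interrupted helices, ranged from 32 triplets in the longest run of *Col12a1*, *Col14a1* and *Col20a1* to 113 in *Col9a2*, *Col9a3* and *Col22a1*.

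**Figure D1:**
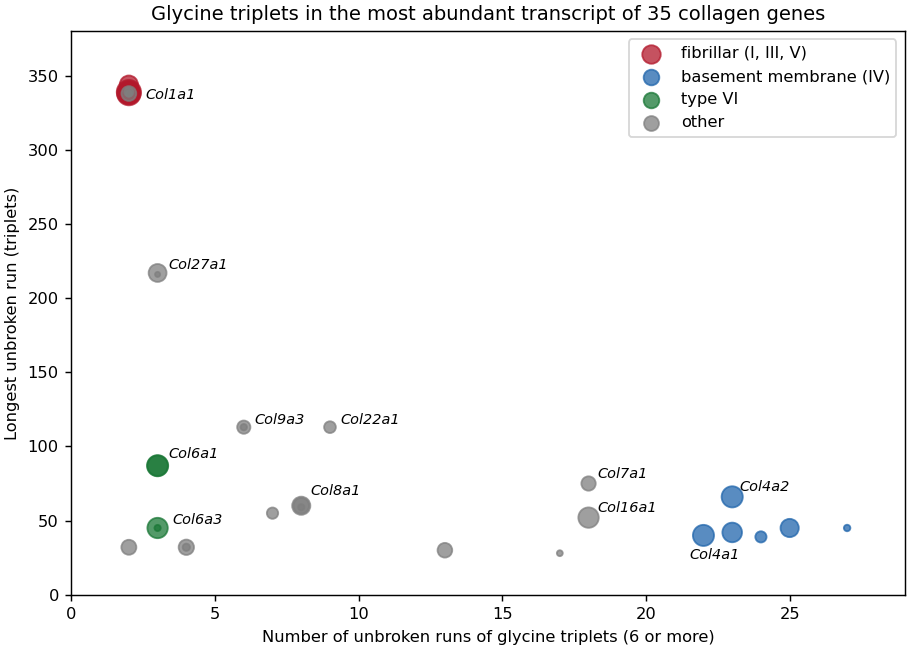
Number of unbroken runs of glycine triplets (x axis) against the length of the longest run in triplets (y axis) in the most abundant transcript of each of the 35 collagen genes, coloured by class, with marker area growing with the level of the gene. The fibrillar genes sit at 2 runs and 337 to 344 triplets, the type IV genes at 22 to 27 runs and 39 to 66 triplets, and the type VI genes at 3 runs.

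Of 44 collagen genes that follow the symbol rule in the annotation, 9 have no row in the deposited table. These are *Col6a5* and *Col6a6* of type VI, and *Col9a1*, *Col13a1*, *Col15a1*, *Col19a1*, *Col23a1*, *Col25a1* and *Col26a1* among the others. All 6 fibrillar and all 6 type IV genes have a row. A level of at least 100 normalised estimated counts was reached by 32 of the 51 transcripts and by 25 of the 35 genes. Among all transcripts, 18808 of 34200 reached it. The median level of the members was 312, and that of all transcripts was 155. Together, the collagens held 1.15% of the summed level of all transcripts.

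Fibrillar collagens dominated. They held 69.1% of the summed collagen level per kilobase, followed by type VI with 13.6%, type IV with 11.5% and the 19 other genes with 5.86%. Without division by length, the order of type VI and type IV turned, with 11.5% for type VI and 13.2% for type IV, so neither is named as the higher. Most of the fibrillar share came from the chains of type I collagen, the main protein of skin and bone. *Col1a2* (chr6:4505493-4541544, plus strand, 52 exons) had a level of 51076 per kilobase, with an SD of 0.40, and alone made up 38.6% of the collagen level. *Col1a1* (chr11:94936224-94953042, plus strand, 51 exons) had 30444 per kilobase, with an SD of 0.41, and made up 23.01%. In estimated counts, these are the transcripts with ranks 11 and 27 among all 34200.

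**Figure D2:**
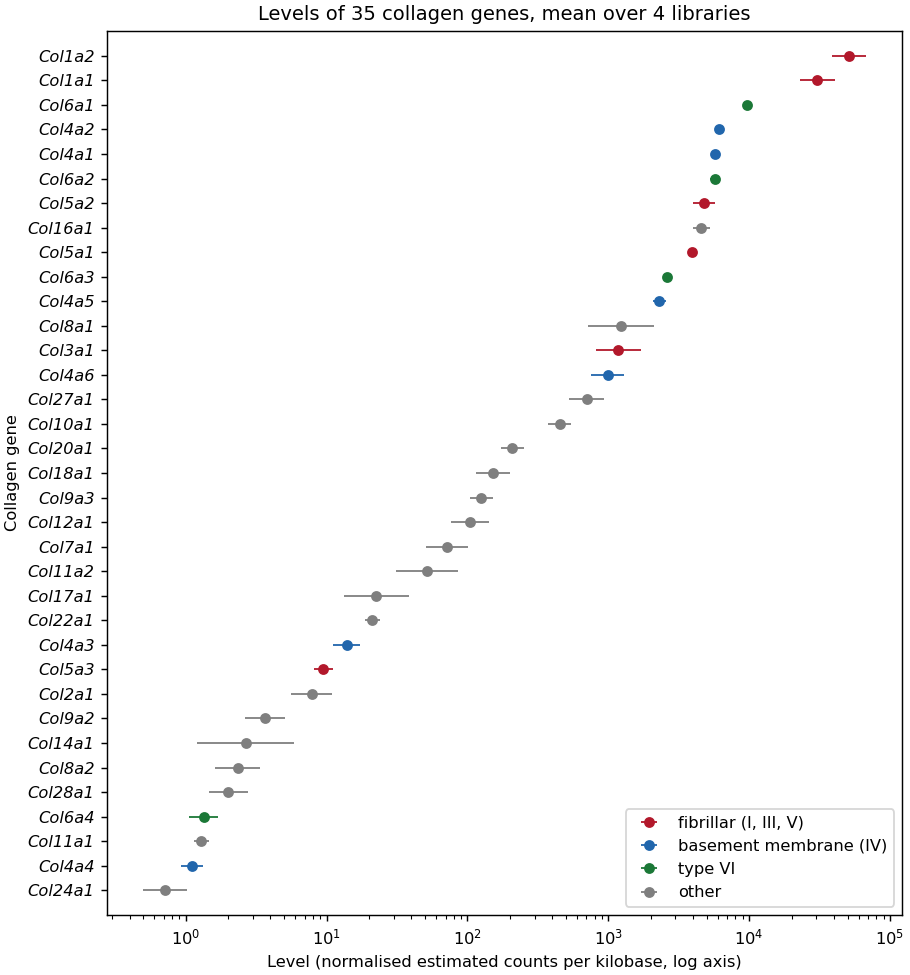
Level of each of the 35 collagen genes in normalised estimated counts per kilobase (log x axis), in order of level and coloured by class, with bars for 1 SD over the 4 libraries of its most abundant transcript. *Col1a2* and *Col1a1* stand above all others at 51076 and 30444, and 10 genes lie under 10.

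The other fibrillar genes lay far lower. *Col3a1*, whose product forms fibres with type I collagen in skin and vessels, had 1181 per kilobase (SD 0.54), so *Col1a1* was 25.8-fold and *Col1a2* 43.2-fold higher. Type V collagen is a minor component that helps to start the fibrils of type I and limits their width. Its chains *Col5a2* and *Col5a1* had 4792 (SD 0.26) and 3915 per kilobase (SD 0.091), and *Col1a1* was 7.78-fold higher than *Col5a1*. The third type V chain, *Col5a3*, had only 9.48 per kilobase, from 58.0 normalised estimated counts.

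In type IV collagen, the pair *Col4a1* and *Col4a2*, which makes the network found in nearly every basement membrane, was the most abundant, with 5763 (SD 0.084) and 6103 per kilobase (SD 0.093). *Col4a5* had 2305 and *Col4a6* 992 per kilobase. These chains form the basement membranes of smooth muscle and, in the case of *Col4a5*, also of the kidney filter. *Col4a3* and *Col4a4*, the partners of *Col4a5* in that filter, had lower levels, with 13.9 and 1.11 per kilobase, from 119 and 11.2 counts. *Col4a3* thus passed the limit of 100 counts and *Col4a4* did not.

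The type VI chains *Col6a1*, *Col6a2* and *Col6a3*, which assemble into 1 trimer, had 9623, 5702 and 2617 per kilobase. *Col6a1* had the highest level after both type I chains. *Col6a4* had 1.35 per kilobase, from 9.94 counts, and did not reach 100 counts.

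Of the 19 other collagens, 12 reached 100 counts. *Col16a1*, a FACIT collagen, had 4589 per kilobase (SD 0.21) and 23890 counts, and held most of the 3.82% that the 7 FACIT genes contributed. *Col8a1*, a short-chain collagen of vessel walls and of the membrane beneath the corneal endothelium, followed with 1233 per kilobase (SD 0.78), which was within its spread of the level of *Col3a1*. *Col27a1*, a fibrillar collagen of cartilage, had 701 per kilobase (SD 0.42), and *Col10a1*, the collagen of hypertrophic cartilage, had 451 (SD 0.26).

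Lower levels were found for *Col20a1* (208 per kilobase), *Col18a1* (152), from which endostatin is cleaved, *Col9a3* (126), *Col12a1* (104), *Col7a1* (72.0), the anchoring fibril collagen of skin, and *Col11a2* (51.6). The level of *Col11a2* per kilobase rests on 1 of its 3 transcripts, since the other 2 could not be matched to the annotation. *Col17a1*, a transmembrane collagen of hemidesmosomes, had 22.6 and *Col22a1* 21.2 per kilobase, with 126 and 159 counts, and these levels did not differ beyond the SD of *Col17a1* (0.76). The remaining 7 genes, *Col2a1*, *Col9a2*, *Col14a1*, *Col8a2*, *Col28a1*, *Col11a1* and *Col24a1*, ranged from 40.0 counts in *Col2a1*, the main collagen of cartilage, to 5.12 in *Col24a1*.

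Levels of chains that assemble with each other were set side by side. Type I collagen is mostly built of *Col1a1* and *Col1a2* chains with *Col1a1* in excess, but the *Col1a1* level per kilobase was 0.596 times that of *Col1a2*, and 0.661 times without division by length. On the log2 scale, the difference was -0.75, with an SD of 0.57 if both spreads are taken as independent. *Col4a1* and *Col4a2* differed by less than their spread, at a ratio of 0.944 and a log2 difference of -0.083 (SD 0.13). For *Col5a1* to *Col5a2*, the ratio was 0.817 per kilobase and 1.04 without division by length, so the data give no order of both.

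Type VI chains differed by more than their spread over the libraries. That spread does not hold the effect of how levels are compared between genes, such as the division by length. *Col6a1* was 1.69-fold higher than *Col6a2*, a log2 difference of 0.76 with an SD of 0.14. *Col6a3*, by far the longest of these chains, had 0.272 times the level of *Col6a1* per kilobase, a log2 difference of -1.88 with an SD of 0.12, and 0.610 times without division by length. RNA levels per kilobase say nothing of how much of each chain was translated or secreted.

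**Figure D3:**
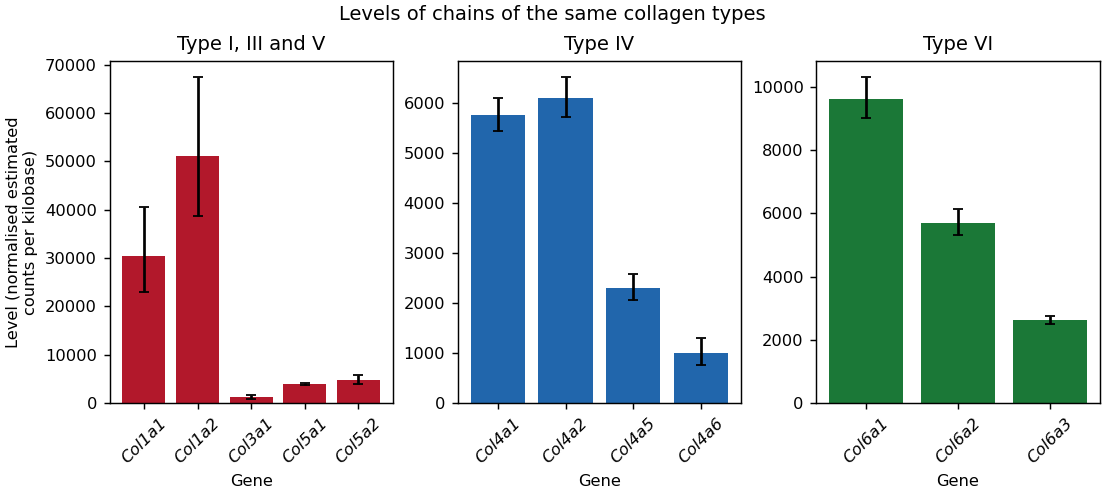
Levels in normalised estimated counts per kilobase (y axes from 0, with a different scale in each panel) of chains of types I, III and V, type IV and type VI, with bars for 1 SD over the 4 libraries of the most abundant transcript of the gene. *Col4a1* and *Col4a2* overlap within 1 SD (5763 and 6103), whereas *Col6a1*, *Col6a2* and *Col6a3* descend from 9623 to 5702 and 2617.

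Several members are neighbours in the genome, which allowed genes within 200 kb to be compared. *Col4a1* (chr8:11198423-11312826, minus strand) and *Col4a2* (chr8:11312805-11449287, plus strand) are transcribed in opposite directions from starts that overlap by 22 bases, and their levels were close to equal. The other pairs of type IV genes have the same head-to-head layout, but not equal levels. *Col4a3* had 12.5-fold the level of *Col4a4*, although the starts of their most abundant transcripts lie 126 bases apart (chr1:82586976-82722059, plus strand, and chr1:82448423-82586849, minus strand). This fold rests on 119 and 11.2 counts. In *Col4a4*, counting and read assignment gave an SD of 0.44, larger than the SD of 0.26 over the libraries. *Col4a5* (chrX:141475385-141689234, plus strand) had 2.32-fold the level of *Col4a6* (chrX:141165403-141474076, minus strand), with 1308 bases between their starts. The SD of *Col4a6* was 0.39 and that of *Col4a5* was 0.16, so their spread over the libraries also differed in size. *Col3a1* and *Col5a2* lie tail to tail on chromosome 1, separated by 24614 bases, and *Col5a2* had 4.06-fold the level of *Col3a1*. *Col6a1* and *Col6a2* lie on the same strand of chromosome 10, separated by 85161 bases.

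More than 1 transcript was listed for 12 of the 35 genes. In the abundant genes among them, a single isoform prevailed. The most abundant *Col6a2* transcript held 88.9% of the estimated counts of the gene, and that of *Col4a5* held 86.2%. Both *Col4a5* transcripts had a small spread, with SDs of 0.16 and 0.14. Of 3 *Col6a3* transcripts, the first held 75.4% (SD 0.070), the second 22.04% (SD 0.21) and the third 2.52%, with 608 counts and an SD of 1.06. The *Col6a3* isoform with the largest share thus had the smallest spread of all collagen transcripts with at least 100 counts, and the one with the smallest share had the largest.

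At lower levels, both patterns were found. A single isoform held 98.6% of the counts of *Col7a1*, 98.5% of those of *Col9a3*, 93.6% of those of *Col12a1* and 82.4% of those of *Col20a1*. In contrast, *Col18a1* divided into 3 transcripts with 439, 218 and 146 counts, and *Col11a2* into 3 with 312, 283 and 280 counts. Estimates for isoforms that share most of their sequence depend on how reads are assigned to them. The deposited technical variance is an estimate by the authors of the error from counting and read assignment. In 20 of the 51 transcripts, it came to more than 50% of the variance over the libraries. These 20 include *Col2a1*, *Col5a3* and *Col4a4*, each with 1 listed transcript and fewer than 100 counts, so they are not only isoforms of shared sequence. The share over all transcripts was not computed, so the number is not read as a trait of collagens. The second *Col7a1* transcript, which is not among those 20, had 9.33 counts and an SD of 4.96 on the log2 scale.

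The classes also differed in their median spread over the 4 libraries, although their ranges overlapped. Among transcripts with at least 100 counts, the median SD was 0.15 in type IV (6 transcripts), 0.16 in type VI (6 transcripts), 0.40 in the fibrillar class (5 transcripts) and 0.40 in the others (15 transcripts). Over all 32 members the median was 0.29, and over all 18808 transcripts with at least 100 counts it was 0.22. The SDs ranged from 0.084 to 0.39 in type IV, from 0.070 to 1.06 in type VI and from 0.091 to 0.54 in the fibrillar class. The 6 type VI transcripts come from 3 genes. These are descriptions of the lists, for which no test was made.

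Expressed as a cap, 18 of the 32 collagen transcripts could not differ by 1.5-fold or more between the KD and WT means, whichever libraries were high. The same held for 74.5% of all transcripts at that level. By class, the numbers were 5 of 6 in type IV, 5 of 6 in type VI, 2 of 5 in the fibrillar class and 6 of 15 in the others. The exception in type IV was *Col4a6*, with a cap of 1.59-fold, and that in type VI was the least abundant *Col6a3* transcript, with a cap of 3.59-fold.

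Among abundant collagens, there was a group with little spread. *Col4a1*, *Col4a2*, *Col5a1*, *Col6a1* and the main transcripts of *Col6a2* and *Col6a3* had SDs from 0.070 to 0.11, under the lower quartile of 0.12 for transcripts with at least 10000 counts. For these transcripts, the largest possible difference between KD and WT was 1.11-fold in *Col4a1* and 1.12-fold in *Col4a2*, *Col5a1* and *Col6a1*. It was 1.14-fold in the main *Col6a2* transcript and 1.09-fold in the main *Col6a3* transcript. The KD and WT means of these transcripts thus lay within these values of each other, in whichever direction. *Col4a5*, *Col16a1* and *Col5a2* followed with caps of 1.21, 1.28 and 1.37-fold.

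Both type I chains stood on the other side. Their SDs of 0.40 and 0.41 exceeded the 90th percentile of 0.38 for transcripts with at least 10000 counts, and they were the only 2 of 11 collagen transcripts in that range to do so. Counting and read assignment contributed an SD of 0.0034 in *Col1a1* and 0.0027 in *Col1a2*. For *Col1a1*, the highest library was between 1.64-fold and 2.01-fold above the lowest, and for *Col1a2* between 1.62-fold and 1.97-fold. The same lower figures, 1.64-fold and 1.62-fold, are the caps on the difference between KD and WT. Whether the libraries with high type I collagen were those of 1 group cannot be told from these values.

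A wide spread was also found in collagens with 1000 to 10000 counts, where the median over all transcripts was 0.18 and the 90th percentile 0.39. Of 9 members in this range, 8 were over the median and 4 over the 90th percentile. These 4 were *Col8a1* with 0.78, *Col3a1* with 0.54, *Col12a1* with 0.45 and *Col27a1* with 0.42. The highest library of *Col8a1* was at least 2.57-fold above its lowest, and at most 3.79-fold. For *Col3a1*, the bounds were 1.91-fold and 2.50-fold. *Col4a6* lay just under the 90th percentile, with 0.39.

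From 100 to 1000 counts, 11 of 12 member transcripts had an SD over the median of 0.26. Several are isoforms of the same gene, among them all 3 transcripts of *Col11a2* and of *Col18a1*, so this is not a count of separate genes. The 3 *Col11a2* transcripts had SDs of 0.73, 0.65 and 0.79, and the highest library of each was at least 2.19-fold above the lowest. The main transcripts of *Col20a1* and *Col9a3* were close to the median, each with 0.27, and the second *Col20a1* transcript was below it with 0.18. Under 100 counts, the 19 members had a median SD of 0.51, beside 0.50 for all such transcripts, so the lists were close to each other at this depth.

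**Figure D4:**
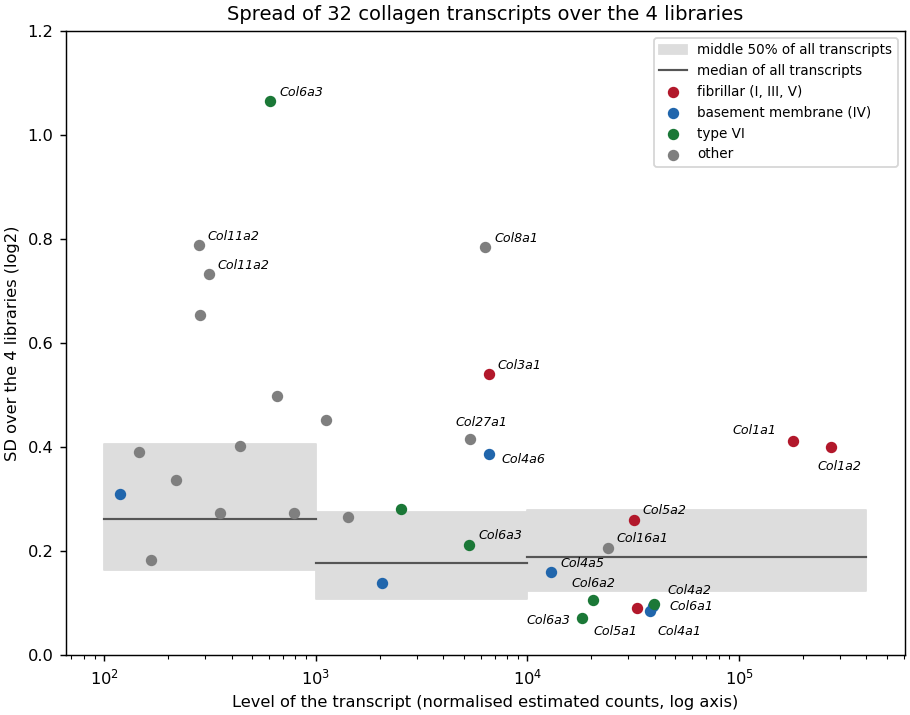
SD over the 4 libraries on the log2 scale (y axis) against level in normalised estimated counts (log x axis) for the 32 collagen transcripts with at least 100 counts, coloured by class, over grey bands for the middle 50% and lines for the median of all transcripts in 3 ranges of level. *Col1a1* and *Col1a2* lie above the band at 0.41 and 0.40, while *Col4a1*, *Col4a2*, *Col5a1*, *Col6a1* and the main *Col6a2* and *Col6a3* transcripts lie below it.

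Genes that fold, modify, process or bind collagen were examined as a list of 40, of which 35 have a row and 30 reached 100 counts. *Serpinh1*, which encodes the collagen chaperone HSP47, was the most abundant with 30446 per kilobase (SD 0.13), close to the level of *Col1a1*. It was followed by *P4hb* with 16394 and *Ppib* with 13498, which encode a subunit of prolyl 4-hydroxylase and a prolyl isomerase. Lysyl oxidase, which crosslinks fibrils (*Lox*), had 8858 per kilobase, and *Pcolce*, an enhancer of procollagen cleavage, had 6886 (SD 0.22). *Fkbp10*, another prolyl isomerase, had 4763 (SD 0.026), *Plod3*, a lysyl hydroxylase, 3791, and *Colgalt1*, which adds galactose to hydroxylysine, 3326 (SD 0.051).

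The median SD of the most abundant transcripts of these 30 genes was 0.15. It was 0.40 in the fibrillar collagens and 0.22 in all transcripts with at least 100 counts, minor isoforms included. Most of the 30 genes had more than 1000 counts. In that range, the median of all transcripts was 0.18 up to 10000 counts and 0.19 above, so the lists were closer to each other at like level. In 25 of the 30 genes, the most abundant transcript could not differ by 1.5-fold or more between KD and WT. The 74.5% given above is for all transcripts with at least 100 counts, which were not matched to these genes by level. The highest SD was 0.68 in *P4ha3*, which encodes a subunit of prolyl 4-hydroxylase, with a cap of 2.28-fold. *Colgalt2*, *Tll2*, *Pcolce2*, *Adamts3* and *Itga11* have no row.

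Markers of the labelled cell type were present. Of 11 fibroblast and mesenchymal markers, 9 have a row and 8 reached 100 counts, with a summed level of 812350 and with *Vim* at 137580 and *Pdgfra* at 10353, while *Lum* had 6.99 and *Fap* and *Postn* have no row. Markers of epithelial, endothelial, leukocyte and muscle cells had far lower summed levels. These were 135 for 2 of 5 epithelial markers, 107 for all 4 endothelial, 375 for 3 of 4 leukocyte and 157 for 2 of 4 muscle markers. In 3 of these lists, 1 marker reached 100 counts: *Cd68* of leukocytes with 343, *Des* of muscle with 146 and *Cdh1* of epithelium with 113. No endothelial marker did. *Epcam*, *Krt18*, *Krt19*, *Cd3e*, *Myod1* and *Myog* have no row. Of the chondrocyte markers, *Sox9* had 2047 counts and *Acan* 12.5. A transcript of the targeted gene, *Setd2* (ENSMUST00000153838.7), had 1844 counts with an SD of 1.15, which caps its difference between KD and WT at 3.99-fold. The knockdown in single libraries was not checked here.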

How the data were processed

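RNA of NIH/3T3 cells was measured in 2 KD and 2 WT libraries, grouped by their labels. Adapters were removed by the authors with BBDuk (38.22), transcripts were quantified with Kallisto (0.44.0), and the estimates were analysed in Sleuth (0.30.0). The transcriptome index and the filter on low counts are not given in the sources used here. Of each transcript, the deposited mean and variances are those of the natural log of estimated counts, divided by a size factor, plus 0.5. As a check of that scale, the deposited technical variance times the level had a median of 1.01 over 5911 genes with 1 transcript and at least 100 counts, where counting noise on a natural log scale gives 1. The other 15 deposited columns of numbers, and the table of genes, hold the likelihood ratio and Wald comparisons by the authors (effects, standard errors, p-values and q-values) and were not used. No test of KD against WT was therefore made, as was planned for this case.

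Levels were the exponential of the mean minus 0.5, summed over the transcripts of a gene, and are geometric means over libraries. Lengths, positions and coding sequences came from GENCODE M21 (GRCm38) by versioned identifier, which matched 49 of 51 collagen transcripts and 98.6% of all. SDs are the square root of the variance divided by the natural log of 2. For 4 values with variance v and divisor 3, the means of 2 against 2 differ by at most the square root of 3v, and the range lies between that value and the square root of 6v. These bounds follow from algebra for any 4 values, and the code for them was run on simulated data. The rule for counting runs of triplets was tried on 1 made series of positions, without sequences. A gene's spread is that of its most abundant transcript, except in the SDs of the chain ratios. There, the variances of all transcripts of a gene were summed, each weighted by its squared share of the level per kilobase, as if independent. Python 3.11.15, numpy 2.4.6, pandas 2.3.3 and matplotlib 3.10.9 were used.

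The members and lists were chosen with earlier results of these data known. Named are all fibrillar, type IV and type VI genes with a row, the 12 other collagens with the highest level per kilobase, the rest by name or level, and the 8 machinery genes with the highest level per kilobase together with those without a row. *P4ha3*, *Setd2* and the single markers were named after their values were seen.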

Additional observations from a re-analysis of the deposited data

How the results depend on the processing

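Levels were recomputed per kilobase of transcript less 200 bases, without division by length, from the most abundant transcript of each gene, from transcripts with at least 100 counts, and with the 0.5 left in. Without division by length, the share of type IV was 13.2% and that of type VI 11.5%, *Col5a1* to *Col5a2* was 1.04, and *Col6a3* to *Col6a1* was 0.610. With the most abundant transcript alone, *Col6a1* to *Col6a2* was 1.87 and *Col6a3* to *Col6a1* 0.210. In the first case the cause is the division itself, and in the second the transcripts left out. The other 38 recomputed values moved by less than the spread, or by less than 1.5 times for a count. The fibrillar share stayed between 69.0% and 69.9%, and 26, 22 and 23 genes passed with a limit of 50, a limit of 200 and the most abundant transcript alone. The planned fits of KD against WT, with other pseudocounts, no filter and each replicate left out, were not run, since values of single libraries are not used here. No paired analysis was possible because the columns used carry no replicate number. Depth per library is unknown, so the limit of 100 counts stands in for a limit of detection.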
